A study of Oryza sativa Japonica Group with 8 samples.

Results

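The plant cell wall is laid down by a few families of enzymes, and this account follows 50 rice genes of those families: cellulose synthases (CESA), cellulose synthase-like proteins (CSLA to CSLH), the COBRA-like proteins named after BRITTLE CULM1 (BC1 and BC1L), and the GT43 glycosyltransferases. They are the genes whose symbol or synonym in the RefSeq gene table carries one of these family names. Of the 50 genes, 41 had a probe set assigned to them alone, out of 17905 genes with such a probe set. The other 9 (CSLA3, CSLA4, CSLE6, CSLF3, CSLF4, CSLF9, BC1L7, GT43B and GT43D) were not analysed here. One of the 41, bHLH081, shares only the synonym BC1. It belongs to a family of transcription factors, is no wall enzyme, and is kept apart below as a match by name alone.

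Above-ground tissue of 5-day-old seedlings of the cultivar Nipponbare, raised at 28 °C, was hybridised to 8 Affymetrix arrays in 4 groups of 2. Each of 2 genotypes, wild type and OsYHB, was grown either in the dark or under constant red light (fluence rate 50 µmol m-2 s-1). OsYHB seedlings are the genotype Ubi::OsYHB/Nip. They carry the allele OsPHYB-Y283H of phytochrome B, the red light receptor, which is active without light, and the maize Ubiquitin promoter drives it in most cells. Replicate 1 of each OsYHB group is line 1 (41-fold overexpression per the labels) and replicate 2 is line 9 (23-fold), so a replicate there is also a separate transgene insertion.

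Cellulose is made at the plasma membrane by complexes of CESA proteins. In rice, CESA1, CESA3 and CESA8, with the related CESA2, CESA5 and CESA6, serve the primary wall of growing cells, and CESA4, CESA7 and CESA9 serve the secondary wall of vessels and fibres. COBRA-like proteins sit at the cell surface and affect how cellulose is ordered. The matrix around cellulose is made by CSL enzymes and glycosyltransferases in the Golgi: CSLA proteins make mannans, CSLC proteins the xyloglucan backbone, CSLF and CSLH proteins the mixed-linkage glucan typical of grasses, and GT43 proteins take part in making the xylan backbone. Red light acting through phytochrome ends the fast elongation of dark-grown seedlings.

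Values are log2 of the deposited intensity of 1 probe set per gene, and a gene was called where limma gave an adjusted p below 0.05 over all 57258 probe sets tested. Intensities of different probe sets have no common scale, so levels are compared between arrays and not between genes. Replicate arrays correlated at 0.992 to 0.996. As the tissue is a bulk sample, fewer cells of a type and less RNA per cell cannot be told apart. Of the 41 genes, 34 had a mean above that of the median probe set. BC1L6, CSLC3, CSLD1, CSLD5, CSLF2, CSLF7 and CESA2 did not, and the files hold no detection call for them.

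Among the markers of the green shoot, rbcS ranged from 13.48 to 13.96 over all arrays and CAB2R from 12.55 to 13.81. CHLI, the dimmest, was at 4.12 and 4.33 in wild-type darkness, just under the medians of those arrays (4.35 and 4.36). The summed intensity of 6 such genes, among them rbcS and CAB2R, lay between 21743 and 22791 in wild-type darkness and between 44424 and 47205 in the other 6 arrays. Limma called 5 of the 6 higher in wild-type red light and all 6 higher in OsYHB darkness. The sum of 9 root genes was 878 and 1310 in wild-type darkness, 2111 and 2469 in wild-type red light, 1002 and 1152 in OsYHB darkness and 1173 and 1395 in OsYHB red light, with 3 called higher in wild-type red light and 1 in OsYHB darkness. Those called in wild-type red light were NAS1, NAS2 and AMT1;1 (log2 differences 4.70, 4.09 and 2.34). There 4 of the 9 root genes differed below 0: Lsi1, Lsi2, CASP1 and AMT1;2, none of them called. Lsi2, CASP1, NRT2.3 and AMT1;2 lay below the median probe set. Lsi1, a silicon channel gene of the root, reached log2 values of 8.88 to 9.88. Its group mean was 9.62 in wild-type darkness and 8.97 in wild-type red light (-0.65, limma adjusted p = 0.0513). The sum of 9 genes of dividing cells ran from 2616 to 3849 in wild-type darkness, 2804 to 3327 in wild-type red light, 2324 to 2823 in OsYHB darkness and 3471 to 3834 in OsYHB red light. None of them was called in wild-type red light, and 2, both listed as ORC1, were called lower in OsYHB darkness. All 9 differed below 0 there, as did 66.8% of all genes (median -0.38, against -0.17 for all genes). In OsYHB red light against OsYHB darkness all 9 differed above 0 (median 0.58), and none was called. Over all genes the median there was 0.05, with 42.7% of genes below 0. Of 8 seed and embryo genes 5 lay below the median probe set, and 1, LEA3, was called lower in OsYHB darkness. In that comparison 3 of the 8 differed below 0 (median 0.03), and GLUA2, the brightest of them, differed by 0.50 without a call. LEA3 was at 7.77 and 6.88 in wild-type darkness and 3.17 and 2.94 in OsYHB darkness. Its wild-type red light replicates were far apart, at 3.39 and 7.84. The part of these markers in the results on wall genes was not tested.

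In OsYHB darkness, 16 of the 41 genes were lower than in wild-type darkness and none was higher, which is 39% of them. Over all genes with a probe set, 28% were called in this comparison (17.3% lower and 10.7% higher). Without bHLH081 the count was 15 of 40. The 16 genes comprise all 6 primary wall CESA genes, CSLA1 and CSLA7, CSLC1, CSLC7 and CSLC9, CSLD2, CSLE2, BC1L9, GT43C and bHLH081. The median difference of the 41 genes was -0.40 on the log2 scale, against -0.17 for all genes, and 29 of the 41 lay below the median of all genes. Over all probe sets tested the median was 0.005. The wall genes were not compared with genes of like intensity. Both OsYHB dark arrays were below both wild-type dark arrays for 33 of the 41 genes (80.5%, against 47.6% of all genes), and above them for 3 (21% of all genes).

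In wild-type red light, 6 of the 41 genes were lower than in wild-type darkness and 1 was higher. Together that is 17.1% of them, the same share as the 17.1% of all genes called, of which 8.13% were lower and 8.98% higher. The genes that fell were CSLA5, CSLA7, CSLC1, CSLD2, GT43C and bHLH081, and CSLE1 rose. The median difference was -0.24, against -0.10 for all genes and -0.04 for all probe sets, and 33 of the 41 lay below the median of all genes. Both red light arrays were below both dark arrays for 26 of the 41 genes (63.4%, against 37.9% of all genes) and above them for 4 (21.9% of all genes). Both comparisons use the same wild-type dark arrays.

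Wild-type darkness stood at the top of the range for many of these genes. Both wild-type dark arrays were above all 6 other arrays for 21 of the 41 genes (51.2%, against 28.3% of all genes). They were below all 6 for CSLE1 and GT43G (4.88%, against 14.4% of all genes). The other comparisons gave few calls: 0 of 41 for OsYHB red light against OsYHB darkness (0.0168% of all genes called), 0 of 41 for OsYHB against wild type in red light (0.0279%), 0 of 41 for OsYHB darkness against wild-type red light (0.313%) and 2 of 41, both higher, for the interaction (7.83%, with 2.87% higher). Limma's unadjusted p was under 0.05 for 8, 3 and 8 genes in the 3 comparisons with no call. The share of all genes under that unadjusted limit was not computed, so these counts have nothing to be read against.

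**Figure D1:**
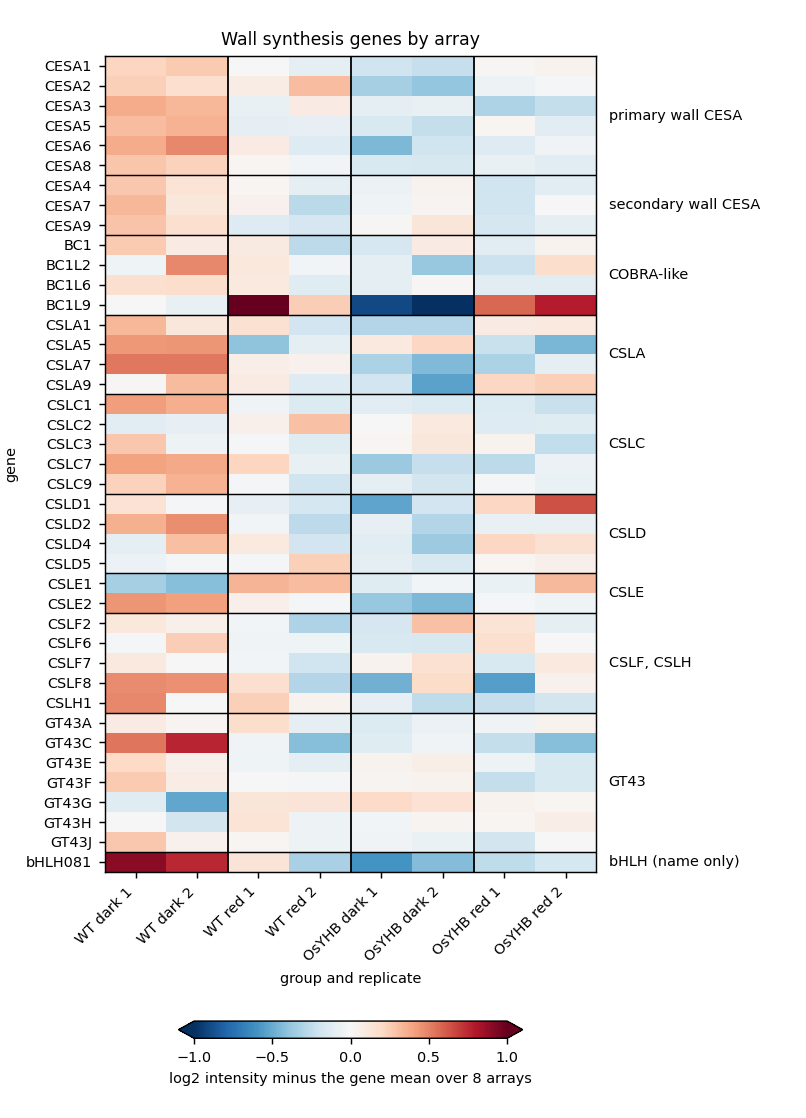
Log2 intensity of the 41 genes (rows, by family) on the 8 arrays (columns, by group and replicate), as the deviation from each gene's mean over the 8 arrays; red is higher and blue lower, and values beyond 1 take the end colour. Both wild-type dark columns are above all 6 others for 21 of the 41 genes, and BC1L9 is the row with the widest spread.

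**Figure D2:**
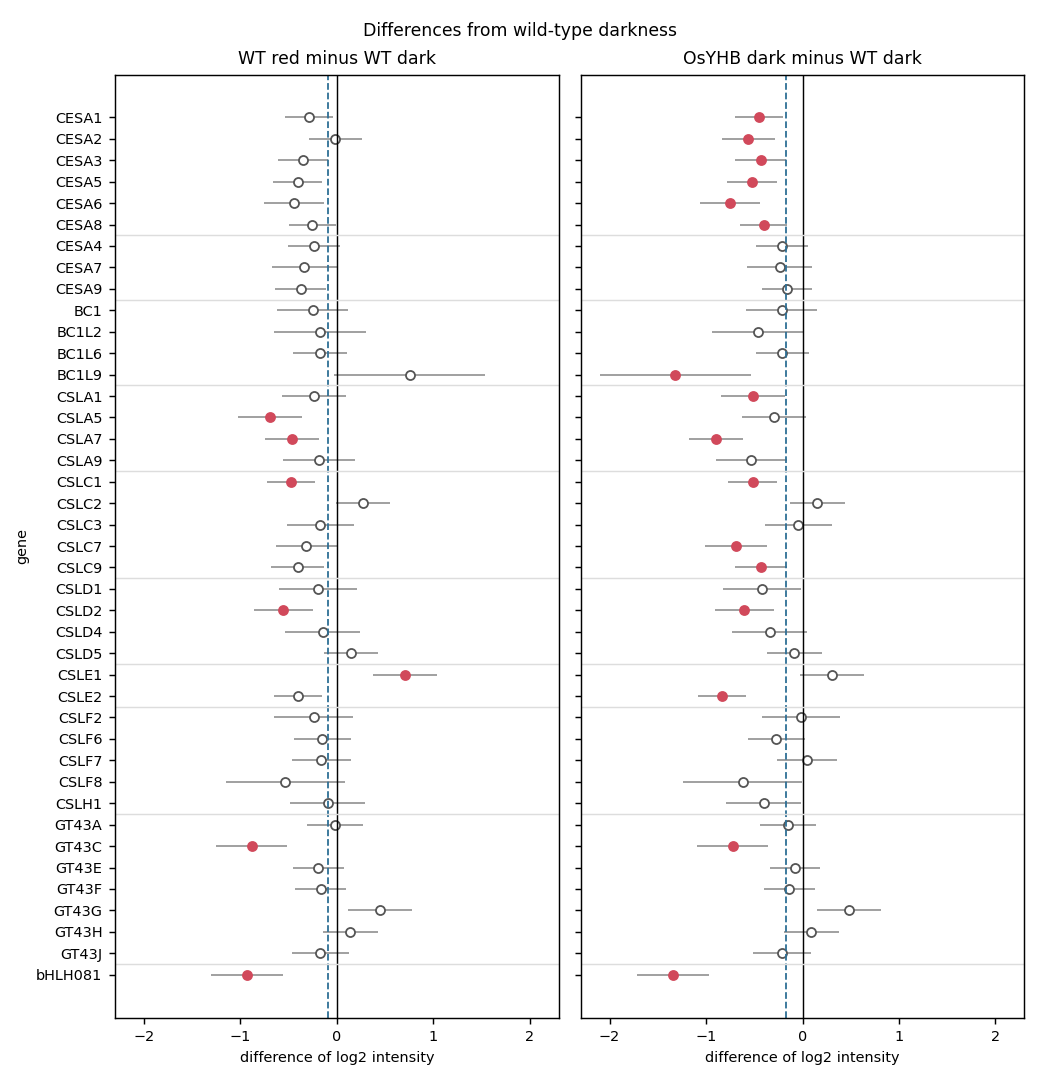
Difference of log2 intensity from wild-type darkness for each gene in wild-type red light (left) and in OsYHB darkness (right), with 95% intervals from limma; filled points had an adjusted p below 0.05, and the dashed line is the median of all genes (-0.10 and -0.17). On the right 16 points are filled and all lie below 0, and on the left 7 are filled, of which CSLE1 lies above 0.

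The calls rest on few arrays. The share of all genes called in the fits below is not given, so the counts do not tell the wall genes from the rest. The OsYHB dark count was 10 without wild-type dark replicate 1 and 10 without replicate 2, 5 without OsYHB dark replicate 1 and 4 without replicate 2, and 7 when only the arrays of both groups were fitted. The wild-type red light count was 4 without wild-type dark replicate 1, 2 without replicate 2, 2 without wild-type red replicate 1, 1 without replicate 2, 4 without either OsYHB red array and 2 on the arrays of both groups.

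Among the primary wall genes, CESA6 had the lowest OsYHB dark values relative to wild type. Its log2 intensities were 11.06 and 11.17 in wild-type darkness, 10.77 and 10.56 in wild-type red light, 10.24 and 10.49 in OsYHB darkness and 10.56 and 10.65 in OsYHB red light. The wild-type dark arrays were above all others, and the OsYHB dark arrays were below all others. CESA6 was 1.68-fold lower in OsYHB darkness than in wild-type darkness (log2 -0.75, SE 0.14, limma adjusted p = 0.00809). In wild-type red light the difference was -0.45 (adjusted p = 0.0805), which was not called. The OsYHB dark call was lost without OsYHB dark replicate 1 (adjusted p = 0.0538).

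CESA1, CESA3 and CESA8 together supply the main subunits of the primary wall complex. CESA1 was at 12.08 and 12.13 in wild-type darkness, 11.87 and 11.77 in wild-type red light, 11.67 and 11.64 in OsYHB darkness and 11.88 and 11.90 in OsYHB red light. CESA3 was at 12.60 and 12.56, 12.15 and 12.31, 12.14 and 12.15, and 11.92 and 11.99 in the same order of groups, and CESA8 at 11.82 and 11.77, 11.56 and 11.51, 11.39 and 11.38, and 11.47 and 11.43. For all 3 genes both wild-type dark arrays were the highest. CESA1 and CESA8 were lowest in OsYHB darkness, and CESA3 was lowest in OsYHB red light. In OsYHB darkness CESA1 fell by 0.46 (SE 0.11, limma adjusted p = 0.0244), CESA3 by 0.43 (SE 0.11, adjusted p = 0.0348) and CESA8 by 0.40 (SE 0.11, adjusted p = 0.0359), which is 1.37-, 1.35- and 1.32-fold. In wild-type red light their differences were -0.29, -0.35 and -0.26 (adjusted p = 0.149, 0.0969 and 0.192), and none was called. All 6 primary wall CESA genes differed below 0 in wild-type red light (median -0.32), as did 62.1% of all genes (median -0.10). Under quantile normalization 2 of the 6 were called lower there, against 1444 of all 17905 genes. The CESA3 and CESA8 calls were lost in each of the 8 fits without 1 array (adjusted p up to 0.136 and 0.143), and the CESA1 call without either wild-type dark array or either OsYHB dark array (up to 0.119), and with the mean of its probe sets.

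CESA5 and CESA2 are the remaining primary wall genes. CESA5 was at 10.86 and 10.90 in wild-type darkness, 10.46 and 10.47 in wild-type red light, 10.40 and 10.31 in OsYHB darkness and 10.57 and 10.44 in OsYHB red light, so that wild-type darkness was apart from the other 3 groups. It fell by 0.52 in OsYHB darkness (SE 0.11, limma adjusted p = 0.0161) and differed by -0.41 in wild-type red light (adjusted p = 0.0579). CESA2 was dim, at 4.26 and 4.19 in wild-type darkness, 4.10 and 4.33 in wild-type red light, 3.69 and 3.64 in OsYHB darkness and 3.97 and 4.01 in OsYHB red light. Its wild-type groups overlapped, and OsYHB darkness was below all other arrays. CESA2 fell by 0.56 in OsYHB darkness (SE 0.12, adjusted p = 0.0168), and differed by -0.02 in wild-type red light (adjusted p = 0.959). Its second probe set, dimmer still, differed by 0.14 in OsYHB darkness (adjusted p = 0.551), so the 2 probe sets of CESA2 disagree. The CESA5 call was lost without either OsYHB dark array (adjusted p up to 0.102), and that of CESA2 without wild-type dark replicate 1 or either OsYHB dark array (up to 0.098). With the mean of both CESA2 probe sets the difference was -0.21 and not called (adjusted p = 0.146).

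None of the 3 secondary wall CESA genes was called in any comparison. CESA4 was at 11.10 and 10.97 in wild-type darkness, 10.85 and 10.74 in wild-type red light, 10.77 and 10.87 in OsYHB darkness and 10.63 and 10.72 in OsYHB red light. CESA7 was at 11.15 and 10.93, 10.86 and 10.55, 10.77 and 10.84, and 10.62 and 10.81, and CESA9 at 9.55 and 9.42, 9.13 and 9.09, 9.27 and 9.38, and 9.09 and 9.16 in the same order. The wild-type dark arrays were the highest for each, by margins smaller than the gap between their own replicates. Their OsYHB dark differences were -0.21 (95% interval -0.48 to 0.06), -0.24 (-0.58 to 0.10) and -0.16 (-0.43 to 0.10), and those in wild-type red light -0.24, -0.34 and -0.37 (limma adjusted p = 0.27, 0.212 and 0.0846). Each interval includes the smallest difference called for a primary wall gene (-0.40, CESA8) and none includes the largest (-0.75, CESA6). The difference between both CESA classes was not tested. A second probe set of CESA4 was called in wild-type red light (-0.47, adjusted p = 0.0465), where the brighter one was not.

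**Figure D3:**
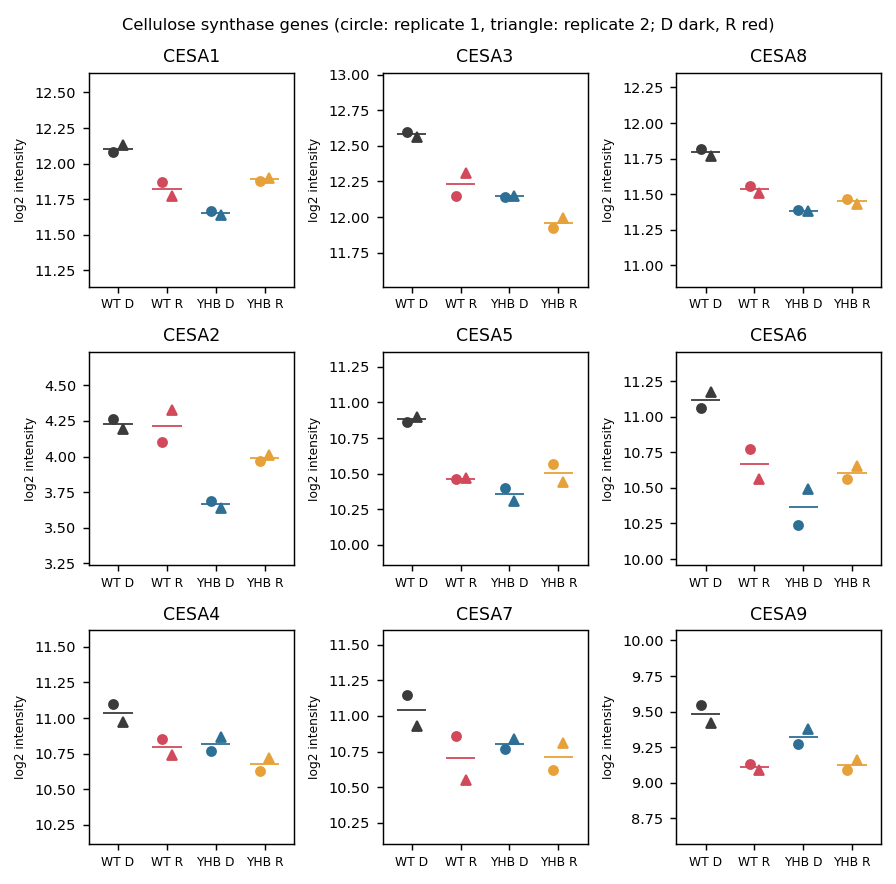
Log2 intensity of the 9 CESA genes on each array (circle, replicate 1; triangle, replicate 2; D, dark; R, red light; YHB, OsYHB), with the mean of each group as a line; each panel has its own range of at least 1.5 log2 units, not starting at 0. The first 2 rows are the primary wall genes, all 6 called lower in OsYHB darkness, and the last row the secondary wall genes, none of them called.

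BC1L9, a COBRA-like gene, varied most across the groups. It was at 7.47 and 7.40 in wild-type darkness, 8.66 and 7.72 in wild-type red light, 6.57 and 5.67 in OsYHB darkness and 8.05 and 8.26 in OsYHB red light. Both OsYHB dark arrays were below all others, and line 9 was the lower of the pair. BC1L9 was 2.49-fold lower in OsYHB darkness than in wild-type darkness (log2 -1.32, SE 0.34, limma adjusted p = 0.0336). Without OsYHB dark replicate 2 the difference was -0.87, and the call was lost (as it was without either wild-type dark array, with an adjusted p up to 0.189, and under quantile normalization). In OsYHB seedlings the difference of red light from darkness was 2.04 (SE 0.34, adjusted p = 0.0989), and that of OsYHB darkness from wild-type red light was -2.07 (adjusted p = 0.0737). Neither comparison was called, nor was wild-type red light against darkness (0.75, adjusted p = 0.231). Its second probe set gave -1.18 in OsYHB darkness (adjusted p = 0.0288).

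The other 3 COBRA-like genes were not called. BC1, which in rice is needed for the strength of the culm, had group means of 9.50, 9.25, 9.28 and 9.29 in wild type (dark, then red light) and in OsYHB (dark, then red light). BC1L2, its direct neighbour in the RefSeq gene order, ranged over the 8 arrays from 5.88 to 6.74 and BC1L6 from 3.50 to 3.80. BC1L2 differed by -0.46 in OsYHB darkness (limma adjusted p = 0.173).

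Of 4 CSLA genes, which encode mannan synthases, 2 fell in OsYHB darkness and 2 in wild-type red light. CSLA7 fell in both comparisons. It was at 8.79 and 8.79 in wild-type darkness, 8.33 and 8.31 in wild-type red light, 7.95 and 7.82 in OsYHB darkness and 7.95 and 8.17 in OsYHB red light. Wild-type darkness was apart from wild-type red light, and both were above all OsYHB arrays. CSLA7 fell by 0.90 in OsYHB darkness (SE 0.12, limma adjusted p = 0.00218), a call kept in all 15 alternatives, and by 0.47 in wild-type red light (SE 0.12, adjusted p = 0.0499), a call lost in every fit without 1 array (up to 0.209).

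CSLA5 was at 7.79 and 7.80 in wild-type darkness, 6.95 and 7.27 in wild-type red light, 7.45 and 7.56 in OsYHB darkness and 7.13 and 6.90 in OsYHB red light. Both dark groups were above both red light groups. CSLA5 fell by 0.69 under red light in wild type (SE 0.14, limma adjusted p = 0.0205). It differed by -0.49 between red light and darkness in OsYHB (adjusted p = 0.209) and by -0.29 between the genotypes in darkness (adjusted p = 0.208). The call was lost without either wild-type dark array or wild-type red replicate 1 (up to 0.135). The interaction was 0.20 (adjusted p = 0.636), so that a difference in light response between genotypes was not called.

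CSLA1 was at 9.54 and 9.32 in wild-type darkness, 9.36 and 9.02 in wild-type red light, 8.92 and 8.92 in OsYHB darkness and 9.29 and 9.31 in OsYHB red light. It was lowest in OsYHB darkness. Wild-type red light overlapped wild-type darkness and OsYHB red light, while wild-type darkness was just above OsYHB red light. It fell by 0.51 in OsYHB darkness (SE 0.14, limma adjusted p = 0.044), a call lost without wild-type dark replicate 1, either OsYHB dark array or either OsYHB red array (up to 0.163), and under quantile normalization. CSLA9 differed by -0.53 in OsYHB darkness (SE 0.16, adjusted p = 0.0582) and was not called. The name CSLA9 is also a listed synonym of the gene called CSLA1 here, which is a separate gene with its own probe set.

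Of 5 CSLC genes, the family of the xyloglucan backbone synthases, 3 fell in OsYHB darkness and 1 in wild-type red light. CSLC1 was at 10.05 and 10.00 in wild-type darkness, 9.60 and 9.50 in wild-type red light, 9.52 and 9.50 in OsYHB darkness and 9.50 and 9.41 in OsYHB red light, so wild-type darkness was apart, and the other 3 groups lay close together, with OsYHB red light the lowest. It fell by 0.52 in OsYHB darkness (SE 0.11, limma adjusted p = 0.0159) and by 0.48 in wild-type red light (SE 0.11, adjusted p = 0.0297). CSLC7 was at 8.09 and 8.07, 7.91 and 7.62, 7.32 and 7.46, and 7.43 and 7.63 in the same order of groups, and fell by 0.69 in OsYHB darkness (SE 0.14, adjusted p = 0.013). CSLC9 was at 7.93 and 8.05, 7.68 and 7.50, 7.61 and 7.52, and 7.68 and 7.63, and fell by 0.43 in OsYHB darkness (SE 0.12, adjusted p = 0.0426). In all 3 genes the wild-type dark arrays were the highest. The CSLC7 call was lost without either OsYHB dark array (up to 0.0751), that of CSLC1 in OsYHB darkness without wild-type dark replicate 1 or either OsYHB dark array (up to 0.0903), and those of CSLC9, and of CSLC1 in wild-type red light, in every fit without 1 array (up to 0.189 and 0.178). That of CSLC9 was also lost under quantile normalization. CSLC2 differed by 0.27 and 0.15 in wild-type red light and OsYHB darkness, and CSLC3, at 2.51 to 3.02, by -0.17 and -0.04, with no call.

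CSLD proteins are linked to tip growth and to cell expansion in leaves, and in rice CSLD1 is known for root hairs and CSLD4 for leaf width. Of 4 CSLD genes CSLD2 was called. It was at 7.57 and 7.68 in wild-type darkness, 7.19 and 6.95 in wild-type red light, 7.13 and 6.92 in OsYHB darkness and 7.14 and 7.14 in OsYHB red light. Wild-type darkness was apart, wild-type red light overlapped both OsYHB groups, and OsYHB darkness was just below OsYHB red light. CSLD2 fell by 0.61 in OsYHB darkness (SE 0.13, limma adjusted p = 0.0179) and by 0.55 in wild-type red light (SE 0.13, adjusted p = 0.0353). The first call was lost when replicate 2 of wild-type darkness or of OsYHB darkness was left out (up to 0.119), and the second in 6 of the 8 fits without 1 array, the exceptions being those without an OsYHB dark array (up to 0.222). CSLD4 ranged from 4.78 to 5.44, CSLD5 from 2.29 to 2.68 and CSLD1 from 2.58 to 3.74, without a call. CSLD1 was highest in OsYHB red light, at 3.31 and 3.74, and lowest in OsYHB darkness, at 2.58 and 2.91 (0.78, adjusted p = 0.149), all of them dim values.

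Of 2 measured CSLE genes, CSLE1 was called higher in wild-type red light and CSLE2 lower in OsYHB darkness, and no comparison called both. CSLE1 was at 7.73 and 7.63 in wild-type darkness, 8.40 and 8.37 in wild-type red light, 7.94 and 8.03 in OsYHB darkness and 7.99 and 8.38 in OsYHB red light, with wild-type darkness below all other arrays. CSLE1 rose by 0.71 under red light in wild type (SE 0.15, limma adjusted p = 0.0193). It differed by 0.31 in OsYHB darkness (adjusted p = 0.192). The call was lost without wild-type dark replicate 2 or either wild-type red array (up to 0.108).

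CSLE2 was at 8.23 and 8.20 in wild-type darkness, 7.84 and 7.78 in wild-type red light, 7.41 and 7.34 in OsYHB darkness and 7.78 and 7.75 in OsYHB red light. Wild-type darkness was the highest and OsYHB darkness the lowest, and the red light groups of both genotypes lay close together between them. CSLE2 fell by 0.84 in OsYHB darkness (SE 0.11, limma adjusted p = 0.00167), a call kept in all 15 alternatives and made by all 3 of its probe sets. In wild-type red light it differed by -0.40 (adjusted p = 0.0555) and in OsYHB red light against OsYHB darkness by 0.39 (adjusted p = 0.19). The difference between these light responses was 0.79 (SE 0.15, adjusted p = 0.0274). It was called in the fits without a wild-type dark array and lost in the other 6 fits without 1 array (up to 0.127). For the 2 other, dimmer probe sets it was 0.83 and 0.79 and was not called (adjusted p = 0.165 and 0.118), and their OsYHB red light difference from darkness was -0.05 and 0.17.

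No gene of the mixed-linkage glucan group was called in any comparison. CSLF6, the main synthase of this glucan in rice, was at 10.61 and 10.88 in wild-type darkness, 10.60 and 10.59 in wild-type red light, 10.48 and 10.47 in OsYHB darkness and 10.79 and 10.64 in OsYHB red light. OsYHB darkness was lowest, wild-type red light lay just under wild-type darkness, and the wild-type dark and OsYHB red arrays overlapped. OsYHB darkness had a difference of -0.27 from wild-type darkness (95% interval -0.57 to 0.02, limma adjusted p = 0.189). CSLH1 ranged from 8.67 to 9.40 and differed by -0.40 in OsYHB darkness (adjusted p = 0.147). CSLF8, next to CSLF2 in the RefSeq gene order, had group means of 6.99, 6.46, 6.37 and 6.27 in the order given for BC1. CSLF2 ranged from 3.42 to 4.02 and CSLF7 from 2.00 to 2.35. CSLF8 was lower in line 1 than in line 9 in both light conditions, at 6.04 against 6.71 in darkness and 5.97 against 6.57 in red light. That line difference of -0.63 had an unadjusted p of 0.00581 in limma and an adjusted p of 1. No wall gene was called between the lines (0 of 41, against 0.0503% of all genes). For 2 of the 41, CSLF8 and CSLD1, the unadjusted p of limma was under 0.05, and the share of all genes under that limit was not computed. CSLD1, at dim values, was also lower in line 1 than in line 9 in both light conditions (line difference -0.38). It was at 2.58 against 2.91 in darkness and 3.31 against 3.74 in red light.

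Of 7 GT43 genes GT43C was called. It carries the synonym IRX9, from an Arabidopsis gene of xylan synthesis in xylem. GT43C was at 8.22 and 8.45 in wild-type darkness, 7.65 and 7.26 in wild-type red light, 7.57 and 7.65 in OsYHB darkness and 7.45 and 7.26 in OsYHB red light. Wild-type darkness was above all other arrays, wild-type red light overlapped both OsYHB groups, and OsYHB darkness was above OsYHB red light. In wild-type red light GT43C fell by 0.88, with an SE of 0.16 and a limma adjusted p of 0.0111. In OsYHB darkness GT43C fell by 0.72, with an SE of 0.16 and an adjusted p of 0.0187. The first call was lost without wild-type red replicate 2 (0.0844), and the second without wild-type dark replicate 2 or either OsYHB dark array (up to 0.0899).

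The other 6 GT43 genes were not called. GT43J, also named IRX14, ranged from 10.32 to 10.78, GT43F, also named IRX9L, from 9.69 to 10.19, GT43A from 9.74 to 10.05, GT43E from 8.50 to 8.85 and GT43H from 7.15 to 7.47. GT43G was lower in wild-type darkness, at 6.65 and 6.25, than on the other arrays, which lay between 6.79 and 6.96. Its differences of 0.44 in wild-type red light and 0.48 in OsYHB darkness were not called (limma adjusted p = 0.0997 and 0.0551), and the second was called higher under quantile normalization.

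The transcription factor gene bHLH081 was at 7.40 and 7.25 in wild-type darkness, 6.62 and 6.17 in wild-type red light, 5.90 and 6.06 in OsYHB darkness and 6.24 and 6.32 in OsYHB red light. Wild-type darkness was above all other arrays. It fell by 1.34 in OsYHB darkness (SE 0.16, limma adjusted p = 0.00123), kept in all 15 alternatives, and by 0.94 in wild-type red light (SE 0.16, adjusted p = 0.00898), lost without wild-type red replicate 2 (0.059). Its light responses in OsYHB and wild type differed by 1.23 (SE 0.23, adjusted p = 0.024), which was lost in 6 of the 8 fits without 1 array (up to 0.0907) and kept without wild-type dark replicate 2 or wild-type red replicate 1.

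**Figure D4:**
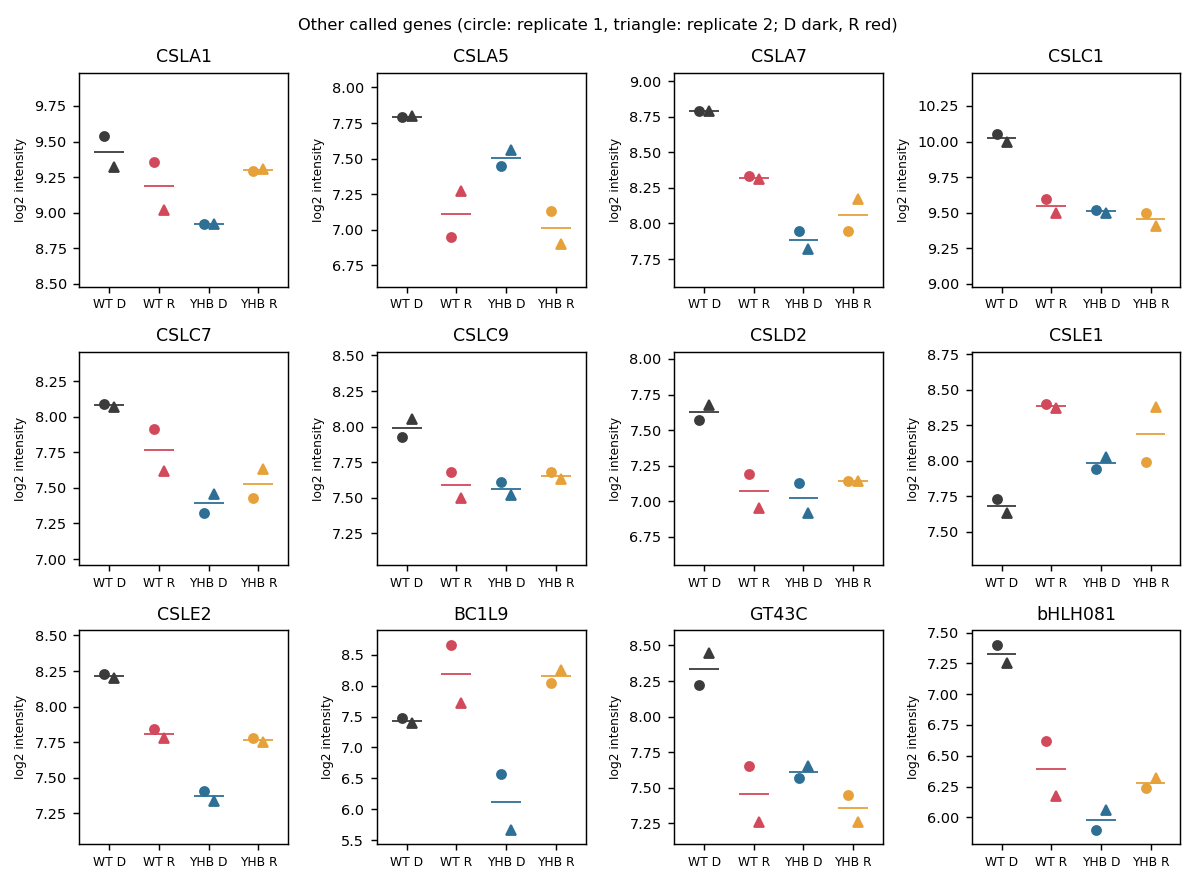
Log2 intensity of the 12 called genes outside the CESA family on each array (circle, replicate 1; triangle, replicate 2; D, dark; R, red light; YHB, OsYHB), with group means as lines; each panel has its own range of at least 1.5 log2 units, not starting at 0. CSLE1 is lowest in wild-type darkness, BC1L9 and CSLE2 are lowest in OsYHB darkness, and CSLA5 is higher in both dark groups than in both red light groups.

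Of the 41 genes, 9 had more than 1 probe set. For CESA3, BC1L9 and CSLE2 every probe set was called lower in OsYHB darkness. For CESA1 the second, dim probe set differed by -0.36 (limma adjusted p = 0.268) and was not called, and for CESA2 the direction differed. The further probe sets of CSLF6, GT43E and GT43F were not called in either comparison, as their brightest were not. The probe sets of CSLC7, CSLD4, GT43E, GT43F and GT43J have a name ending that Affymetrix uses for probes shared between transcripts, so related genes may add to their signal.

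**Figure D5:**
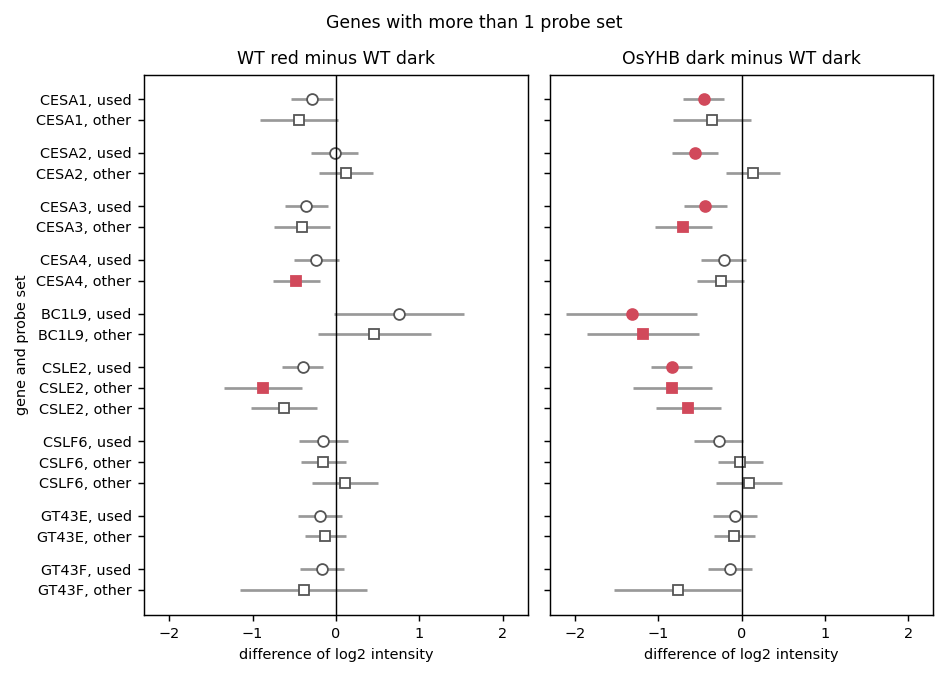
Difference of log2 intensity from wild-type darkness for each probe set of the 9 genes with more than 1, in wild-type red light (left) and OsYHB darkness (right), with 95% intervals from limma; circles are the probe sets used for the gene, squares the others, and filled symbols had an adjusted p below 0.05. On the right all probe sets of CESA3, BC1L9 and CSLE2 are filled, and the symbols of CESA2 lie on opposite sides of 0.

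A few other genes that serve these enzymes had probe sets. Of 2 endoglucanase genes, GLU1, whose product is a membrane-bound partner of cellulose synthesis, had group means of 10.35, 9.69, 9.94 and 9.74 in the same order as given for BC1. GLU1 fell by 0.66 in wild-type red light, with an SE of 0.11 and a limma adjusted p of 0.00887. In OsYHB darkness GLU1 fell by 0.41, with an adjusted p of 0.0443. GLU2 fell by 0.39 in OsYHB darkness (adjusted p = 0.0402), and its difference of -0.39 in wild-type red light was not called (adjusted p = 0.0596). Of 9 sucrose synthase and UDP-glucose dehydrogenase genes, which supply the sugar nucleotides, SUS2 fell by 0.60 in OsYHB darkness (adjusted p = 0.0149) and by 0.50 in wild-type red light (adjusted p = 0.0418), and the other 8 were not called in either (medians over the 9 genes of -0.31 and 0.00). Of 2 further xylan genes, XAT2, an arabinosyltransferase gene, fell by 0.77 in OsYHB darkness (SE 0.12, adjusted p = 0.00425) and differed by -0.14 in wild-type red light (adjusted p = 0.554), while GT47D was not called. The XAT2 call was kept in all 15 alternatives. That of GLU1 in wild-type red light was lost without either wild-type red array (up to 0.0666), and those of GLU1, GLU2 and SUS2 in OsYHB darkness without either OsYHB dark array, among others (up to 0.186, 0.14 and 0.0942), and that of GLU1 under quantile normalization. The SUS2 call in wild-type red light was lost in 7 of the 8 fits without 1 array (up to 0.212), the exception being that without wild-type dark replicate 2.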

How the data were processed

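The authors deposited one linear intensity for each probe set on each array. The submitters' processing notes name RMA, GCOS and limma without saying which made these values. Of 57381 probe sets, 123 controls were left out. Values were converted to log2 with no further normalization (array medians 4.35 to 4.39). For arrays, their number limits the precision. GEO's platform annotation gave 1 gene for 22436 probe sets, and several for 95. All 17905 genes were found in RefSeq's table (ASM3414082v1), used for names and gene order only. A gene's probe set with the highest mean was used.

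With limma 3.58.1 (R 4.3.3), group means were fitted over all 8 arrays (no trend, 4 residual and 4.27 prior degrees of freedom), two-sided, with Benjamini-Hochberg adjustment over 57258 probe sets per comparison, after the code was tested on simulated data. A separate fit had a term for line 1 against line 9. Figures used matplotlib 3.10.9, and tables pandas 2.3.3. The members, lists and naming rule (every member; values of each array for called ones; called genes of the pathway lists) were chosen with earlier results of these data known. The lists of wall transcription factors and of callose and glucanase genes gave no gene with a probe set. A planned search of promoters for motifs was not run. By the labels, replicate number stands for the line in OsYHB and pairs those arrays, but only numbers the wild-type arrays. Deviations from group means correlated at 0.145 between the OsYHB groups and at 0.0932 between the wild-type groups. Between a wild-type and an OsYHB group, which share no line, the correlation ran from -0.172 to 0.0785. These values therefore do not show the pairing by themselves.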

Additional observations from a re-analysis of the deposited data

Results flagged for a closer look

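The red light response differed between the genotypes for 2 genes, by the interaction term of limma over all 8 arrays. For bHLH081 the response in OsYHB minus that in wild type was 1.23 on the log2 scale (adjusted p = 0.024): the difference of red light from darkness was -0.94 in wild type and 0.30 in OsYHB, where it was not called. For CSLE2 it was 0.79 (adjusted p = 0.0274), with -0.40 in wild type and 0.39 in OsYHB, neither of them called. The adjusted p ranged over the alternatives from 0.0195 to 0.0907 for bHLH081 and from 0.0145 to 0.127 for CSLE2. A share of 7.83% of all genes was called for this interaction.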

How the results depend on the processing

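Single-gene results were followed under the alternative settings only where the main fit had called them, those of SUS2, GLU1, GLU2 and XAT2 included. Of these 462 results, 309 kept their direction and their call, 153 kept the direction and lost the call, and none turned. Genes not called in the main fit are outside this tally, so it does not count calls gained under an alternative. In OsYHB darkness, CSLE2, CSLA7, bHLH081 and, from the pathway lists, XAT2 kept their calls in every alternative run, and in wild-type red light no gene did. The wild-type red light count of 7 became 12 with an intensity trend, 13 among probe sets above the median level (34 of the genes), 12 with probe sets averaged per gene and 2 when no other group's arrays entered the fit. The OsYHB dark count of 16 became 7 under that last setting, where all but CESA2, CESA5, CESA1, CESA3, CESA8, CSLA1, CSLC1, CSLC9 and CSLD2 kept their calls. The interaction count of 2 became 4 with the trend, 4 among brighter probe sets, 4 with probe set means, and 1 without bHLH081, an alternative chosen after seeing the data. Leaving out 1 array gave counts of 1 to 5 in wild-type red light, 4 to 13 in OsYHB darkness, 0 to 2 for the interaction and 0 to 0 in the other 3 comparisons of groups, with the lone array of a group assumed to vary like the others. Quantile normalization gave 9 and 14 (13 lower and 1, GT43G, higher), with CSLA1, CSLC9 and BC1L9 lost in OsYHB darkness. Over all genes it gave 1604 higher and 1444 lower in wild-type red light (1608 and 1456 in the main fit). In OsYHB darkness it gave 2002 higher and 2476 lower over all genes (1907 and 3099 in the main fit). Shares of all genes under the other alternatives are not given here, so those counts do not tell the wall genes from the rest. With the replicate block the counts were 5 in wild-type red light, where CSLD2 (adjusted p = 0.0503) and CSLA7 (0.0799) lost their calls, 13 in OsYHB darkness, where CESA8 (0.0567), CESA3 (0.053) and CSLC9 (0.0636) did, and 2 for the interaction, with 0 for OsYHB red light against darkness, where the lines pair the arrays. The files give no detection call, so what the signal over background limits could not be measured for the 7 dim genes.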
